A study of Mus musculus with 8 samples.

Results

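The CXC chemokines that draw neutrophils into tissue, and CXCR2, the receptor through which neutrophils sense them, were examined in lung RNA of LPS-treated mice with and without tangeretin. The genes were chosen by symbol, with earlier results of these data known, and all 8 were found among the 24584 genes of the deposited tables. They are the 4 chemokines Cxcl1, Cxcl2, Cxcl3 and Cxcl5, which tissue and immune cells make on demand, the lung chemokine Cxcl15 (lungkine), the platelet chemokines Ppbp and Pf4, and the receptor Cxcr2. All 8 had enough counts to be tested, with 136 to 32902 reads per gene and sample.

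The study asked how tangeretin, a polymethoxylated flavonoid of citrus peel, acts on septic acute lung injury, and bulk RNA-seq was used to compare lung tissue of an LPS group (n = 4) with that of an LPS + Tan group (n = 4). All mice were male ICR mice of 6 to 8 weeks, an outbred stock, with the genotype labelled wild type. Both groups were challenged with an intraperitoneal dose of 5 mg/kg LPS from Escherichia coli, and lungs were taken after 12 h. The LPS + Tan group had received 50 mg/kg tangeretin by the same route, 30 min ahead of LPS. The vehicle given to the LPS group is not given in the sources used here, and no unchallenged lungs and no lungs given tangeretin alone were analysed here, so that the rise of these genes with LPS itself was not measured. Nothing in the labels says that each sample came from a separate mouse, and the p-values measure the spread between these samples.

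Neutrophils leave the blood along gradients of CXC chemokines. Those with a glutamate-leucine-arginine (ELR) motif before the first cysteines bind CXCR2, a G protein-coupled receptor, and many of them are made within hours of LPS by endothelial cells, epithelial cells, macrophages and neutrophils themselves. Their transcription is driven in large part by NF-κB, and their mRNAs are short-lived because they are bound by decay factors such as tristetraprolin. In septic lung injury, this axis is known for the retention of neutrophils in lung capillaries and their passage into the air spaces.

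The 7 chemokine genes lie side by side on the plus strand of chromosome 5 in the GRCm38.p6 assembly, between positions 90759298 and 90905938. The order is Cxcl5, Ppbp, Pf4, Cxcl3, Cxcl15, Cxcl1 and Cxcl2, and none of the 7 RefSeq genes in this span of 146.641 kb lies outside the group. The largest gap, of 88.177 kb, separates Cxcl15 from Cxcl1. Cxcr2 lies elsewhere, at chr1:74153994-74161246 on the plus strand.

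Because NF-κB drives many of these genes, the 120 bases from 150 to 31 bases before the RefSeq gene start, a window ahead of the first exon, were read for the NF-κB (kappaB) consensus on both strands. Promoter sequence was found for 7 of the 8 genes, all but Cxcl5. The promoters of Cxcl1, Cxcl2 and Cxcl3 held the consensus, and those of Cxcl15, Ppbp, Pf4 and Cxcr2 did not hold these letters in the window. Of 32851 RefSeq mouse promoters, 3.65% held it in the same window. In each of the 3 promoters the consensus matched once on either strand, and these matches overlap within the same stretch. The 5 promoters below are given 5′ to 3′ on the plus strand of GRCm38.p6, to show the shared stretch in the promoters of Cxcl1, Cxcl2 and Cxcl3, in capitals, beside 2 neighbours without it.
Cxcl1, chr5:90891095-90891214: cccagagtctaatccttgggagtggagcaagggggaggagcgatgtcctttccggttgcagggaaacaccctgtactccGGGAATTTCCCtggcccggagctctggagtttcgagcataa
Cxcl2, chr5:90903749-90903868: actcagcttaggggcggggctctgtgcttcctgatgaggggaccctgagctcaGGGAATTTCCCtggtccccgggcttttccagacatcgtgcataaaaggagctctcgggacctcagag
Cxcl3, chr5:90785951-90786070: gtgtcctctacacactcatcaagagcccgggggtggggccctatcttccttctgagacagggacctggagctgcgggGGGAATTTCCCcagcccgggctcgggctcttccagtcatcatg
Cxcl15, chr5:90794384-90794503: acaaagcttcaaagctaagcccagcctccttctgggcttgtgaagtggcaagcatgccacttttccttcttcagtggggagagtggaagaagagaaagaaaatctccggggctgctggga
Ppbp, chr5:90768368-90768487: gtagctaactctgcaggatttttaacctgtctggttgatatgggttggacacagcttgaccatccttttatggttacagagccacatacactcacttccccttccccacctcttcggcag
The stretch in capitals begins 71, 97 and 73 bases before the start of Cxcl1, Cxcl2 and Cxcl3. A match describes the letters only, and binding of NF-κB was not measured.

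Each library held 38895654 to 39931970 gene-assigned reads, a narrow span of depth. Pearson correlations between samples in log2 CPM of the tested genes were 0.976 to 0.989, and no library stood apart. To check the tissue label, the club cell gene Scgb1a1 and the alveolar type 2 gene Sftpc were read, with mean FPKM values of 31365 and 5816, and no marker of neutrophils, platelets, alveolar type 2 and club cells, macrophages, endothelium, erythroid cells or fibroblasts was at 0 in all samples. Counts were scaled to CPM with edgeR's TMM factors, which lay between 0.959 and 1.05, and edgeR's quasi-likelihood test was run on 15706 genes.

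Levels were first compared between genes on the FPKM scale, which is per gene length. Cxcl15, a chemokine that lung epithelium secretes into the airways, was the highest, with a mean FPKM of 282.5 over the 8 samples, above 98.8% of the tested genes. The range of its FPKM values, 188.6 to 389.3, did not meet that of any other member. Cxcr2, Cxcl1 and Cxcl2 followed with mean FPKM values of 61.7, 59.5 and 44.5, and the ranges of neighbours in this order overlapped. A gap separated them from Pf4, Ppbp, Cxcl5 and Cxcl3, with mean FPKM values of 11.6, 7.29, 5.52 and 4.71, whose neighbouring ranges overlapped as well. Cxcl15 thus made up 64.7% ± 5.09 (SD, n = 4) of the summed FPKM of the 7 chemokines in the LPS group and 69.9% ± 6.83 (SD, n = 4) in the LPS + Tan group. Among Cxcl1, Cxcl2, Cxcl3 and Cxcl5, the summed FPKM was nearly that of Cxcl1 and Cxcl2 alone. Cxcl1 held 51.6% ± 3.23 (SD, n = 4) of the summed FPKM of these 4 genes in the LPS group and 52.9% ± 5.80 in the LPS + Tan group (SD, n = 4 each). Cxcl2 held 39.5% ± 2.70 and 37.8% ± 6.72 (SD, n = 4 each). The counting tool is not given in the sources used here, so how reads shared between the related Cxcl1, Cxcl2 and Cxcl3 were assigned is not known.

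**Figure D1:**
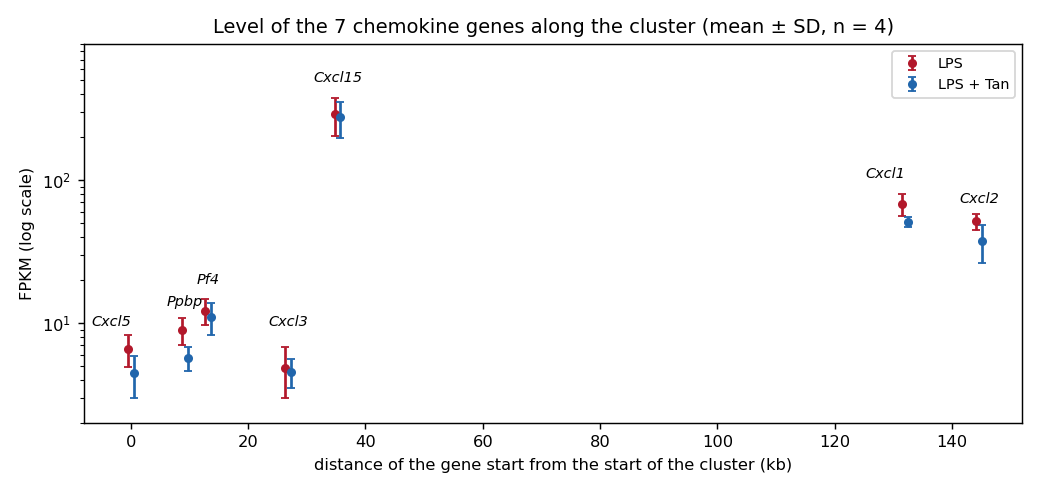
FPKM of the 7 chemokine genes (log scale) against the distance of each gene start from the start of the cluster in kb, as mean ± SD of 4 samples in the LPS group (red) and the LPS + Tan group (blue). Cxcl15, 35.236 kb into the cluster, has the highest FPKM at 282.5, while its neighbour Cxcl3 has the lowest at 4.71, and Cxcl1 and Cxcl2 lie beyond the gap of 88.177 kb.

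In the comparison of LPS + Tan with LPS, the log2 fold changes of all 7 chemokines were negative and that of Cxcr2 was 0.090. Cxcl1, Cxcl2, Cxcl5 and Ppbp were lower in the LPS + Tan group at an unadjusted p below 0.05, by 26.3% to 37.5%, and no member passed the adjusted threshold. That is 4 of 8 members lower at an unadjusted p below 0.05, against 2.25% of all tested genes, and 0 of 8 higher, against 2.87%. At an adjusted p below 0.05, edgeR's quasi-likelihood test called 0 of 8 members and 0 of 15706 genes (0%). DESeq2 called 35 of 24558 genes and edgeR's likelihood ratio test 23 of 15706. The quasi-likelihood test without LPS + Tan replicate 4 called 1 of 15932. None of these genes was a member. The median log2 fold change of the 8 members was -0.31, beside 0.0070 over all tested genes. Because the 8 genes were chosen with earlier results of these data known, this contrast with all tested genes is a description and no independent test. Of all genes at an unadjusted p below 0.05, 56.1% were higher in the LPS + Tan group with TMM factors and 73.2% when counts were scaled to totals only, yet the 7 chemokines kept a negative log2 fold change with every scaling tried. Only Cxcl1 and Ppbp, 2 of 8, stayed under an unadjusted p of 0.05 without LPS replicate 1, 2 or 3 or without LPS + Tan replicate 1, and 3 of 8 did without LPS + Tan replicate 2, where Cxcl5 was lost, or replicate 3, where Cxcl2 was lost. The share of all tested genes lower at an unadjusted p below 0.05 moved as well in these fits, to 1.33% without LPS + Tan replicate 1, 5.06% without LPS + Tan replicate 2 and 4.56% without LPS + Tan replicate 4, and lay between 1.71% and 2.54% without any 1 of the other 5 samples. In bulk tissue, fewer cells of a type and less RNA per cell cannot be told apart.

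Cxcl1 (KC), a CXCR2 ligand made by endothelium, epithelium and macrophages, had CPM values of 68.4, 78.5, 61.5 and 53.6 in LPS replicates 1 to 4 and of 51.7, 50.1, 41.7 and 49.8 in LPS + Tan replicates 1 to 4. Every LPS sample was above every LPS + Tan sample, although LPS replicate 4 exceeded LPS + Tan replicate 1 by little. Its log2 fold change was -0.44 (SE 0.12, 95% interval -0.71 to -0.17), and its edgeR quasi-likelihood adjusted p was 0.919. An exact two-sided permutation test of its log2 CPM gave p = 0.0286, the smallest that 4 against 4 samples allow. It was the only member whose groups did not overlap in this direction, as was so for 1.15% of all tested genes. With counts scaled to totals only, LPS replicate 4 at 53.2 CPM fell just under LPS + Tan replicate 1 at 53.3 CPM, so the groups of Cxcl1 then overlapped, 0.783% of all tested genes were separate and lower, and the exact permutation p was 0.0571.

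Cxcl2 (MIP-2), a CXCR2 ligand released mainly by macrophages and neutrophils, had CPM values of 59.3, 59.0, 62.9 and 45.5 in the LPS samples and of 31.8, 52.9, 26.9 and 49.8 in the LPS + Tan samples. LPS + Tan replicates 1 and 3 were below the whole LPS group, whereas replicates 2 and 4 lay above LPS replicate 4. The log2 fold change of Cxcl2 was -0.49 (SE 0.21, 95% interval -0.96 to -0.024, edgeR quasi-likelihood adjusted p = 0.924, exact permutation p = 0.0857).

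Cxcl5 (LIX), a CXCR2 ligand known from lung epithelium, had CPM values of 12.9, 12.1, 12.5 and 6.84 in the LPS samples and of 6.03, 4.83, 9.87 and 8.29 in the LPS + Tan samples. The LPS group was tight apart from replicate 4, which lay among the LPS + Tan samples. Its log2 fold change was -0.61 (SE 0.26, 95% interval -1.18 to -0.041, edgeR quasi-likelihood adjusted p = 0.924, exact permutation p = 0.0857). Cxcl3, a CXCR2 ligand and the least abundant member in FPKM, had CPM values of 4.48, 3.44, 4.39 and 7.83 in the LPS samples and of 3.59, 6.10, 4.21 and 4.34 in the LPS + Tan samples. The LPS + Tan values lay within the range of the LPS group, and LPS replicate 4, the lowest LPS sample for Cxcl1, Cxcl2 and Cxcl5, was the highest of all samples for Cxcl3. The log2 fold change of Cxcl3 was -0.14 (SE 0.27, 95% interval -0.73 to 0.45, edgeR quasi-likelihood adjusted p = 0.982), and it was 0.15 without LPS replicate 4.

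Cxcl15, which attracts neutrophils into the air spaces, had CPM values of 841.5, 678.8, 571.6 and 404.4 in the LPS samples and of 588.7, 405.9, 497.8 and 832.9 in the LPS + Tan samples. Both groups covered almost the same range, a span of 2.08-fold from the lowest to the highest sample. Its log2 fold change was -0.10 (SE 0.25, 95% interval -0.67 to 0.46, edgeR quasi-likelihood adjusted p = 0.986), and was positive, at 0.076 and 0.036, without LPS replicate 1 and without LPS + Tan replicate 2. The interval of this difference reaches from 37.0% lower to 37.7% higher.

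Ppbp, the precursor of NAP-2 (CXCL7), which platelets store and which binds CXCR2 after cleavage, had CPM values of 10.2, 11.3, 6.90 and 10.6 in the LPS samples and of 5.39, 7.60, 4.72 and 6.65 in the LPS + Tan samples. Of the 16 pairings of an LPS with an LPS + Tan sample, 15 were lower in LPS + Tan, the exception being LPS replicate 3 with LPS + Tan replicate 2. Its log2 fold change of -0.68 was the lowest of the 8 genes (SE 0.20, 95% interval -1.12 to -0.24, edgeR quasi-likelihood adjusted p = 0.922, exact permutation p = 0.0571). Pf4 (CXCL4), stored in the same platelet granules but without an ELR motif and no classical CXCR2 ligand, had CPM values of 8.21, 5.09, 7.50 and 8.32 in the LPS samples and of 5.61, 6.28, 4.74 and 9.12 in the LPS + Tan samples. The highest and the lowest values of Pf4 were both in the LPS + Tan group. The log2 fold change of Pf4 was -0.18 (SE 0.23, 95% interval -0.68 to 0.33, edgeR quasi-likelihood adjusted p = 0.973).

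Cxcr2, the receptor carried mostly by neutrophils, had CPM values of 188.7, 143.7, 200.2 and 214.0 in the LPS samples and of 216.3, 174.0, 208.7 and 195.6 in the LPS + Tan samples. The groups overlapped, with LPS replicate 2 the lowest. The log2 fold change was 0.090 (SE 0.13, 95% interval -0.19 to 0.37, edgeR quasi-likelihood adjusted p = 0.978, exact permutation p = 0.6), and was -0.021 without LPS replicate 2. The interval reaches from 12.6% lower to 29.6% higher. Cxcr1, the other neutrophil CXC receptor, had 1 to 19 counts per sample, too few for a test, and its mean FPKM was 0.160 beside 61.7 for Cxcr2.

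**Figure D2:**
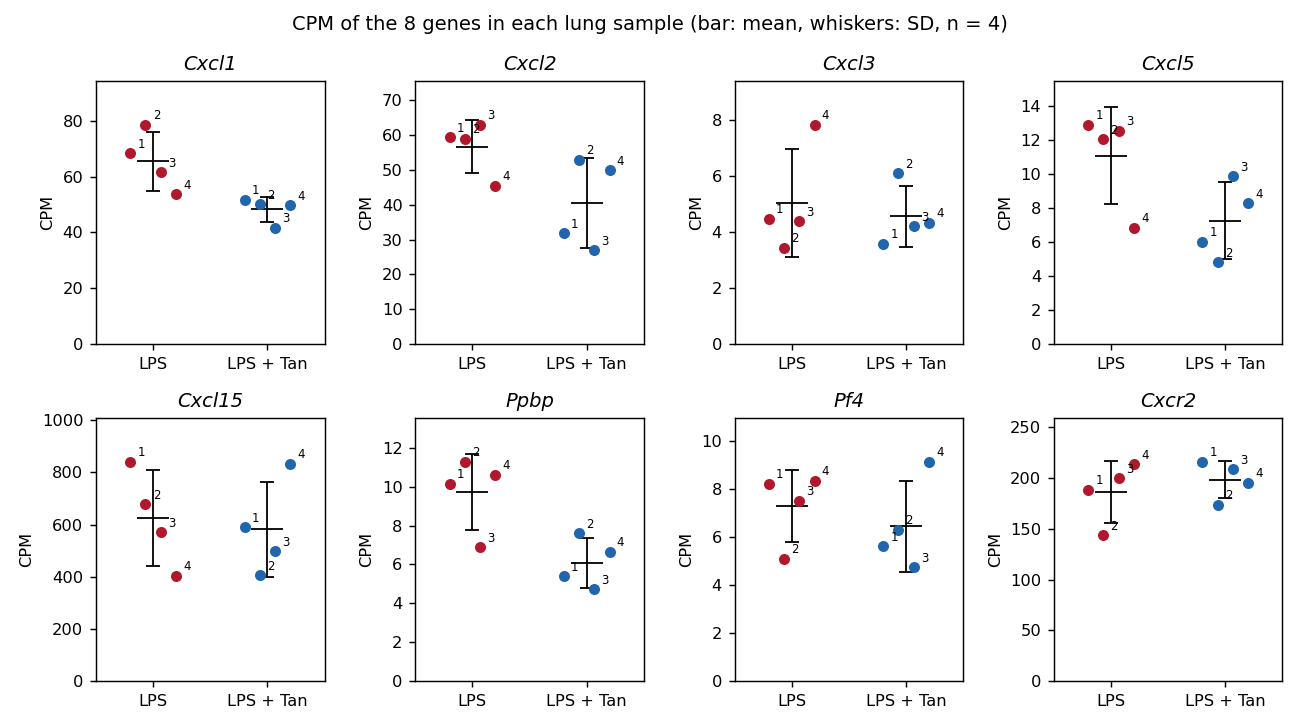
CPM (vertical axis, scaled with TMM factors) of each of the 8 genes in the LPS samples (red) and the LPS + Tan samples (blue), with the replicate number beside each point, the mean as a bar and the SD as whiskers (n = 4). The 4 LPS + Tan samples of Cxcl1 lie between 41.7 and 51.7 CPM, under the lowest LPS sample at 53.6, while the groups of the other 7 genes overlap.

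**Figure D3:**
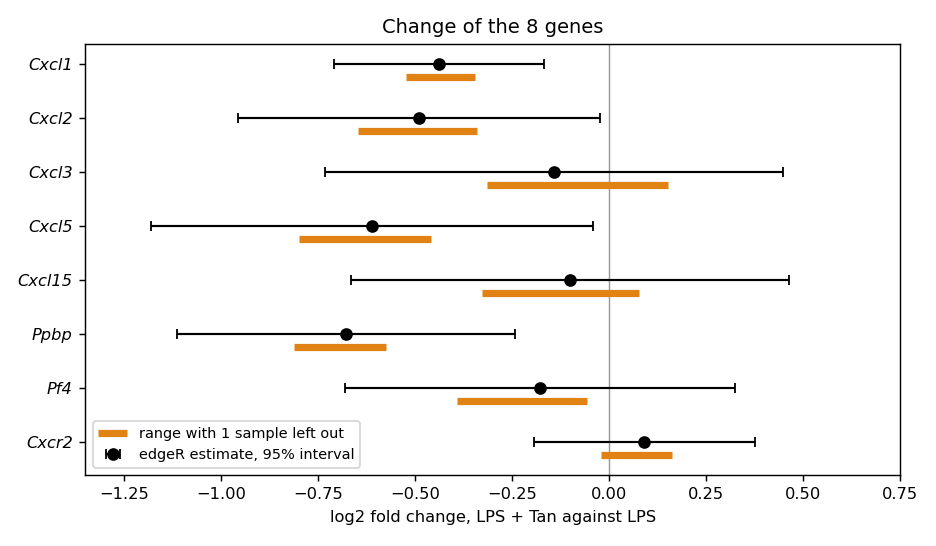
log2 fold change of LPS + Tan against LPS for the 8 genes (horizontal axis), with the edgeR estimate as a point, its 95% interval as a line and, in orange, the range of the estimate when each sample was left out in turn. The 95% intervals of Cxcl1, Cxcl2, Cxcl5 and Ppbp lie below 0, and the orange ranges of Cxcl3, Cxcl15 and Cxcr2 cross 0.

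Whether members differed from each other in their change was tested on the log2 ratio of their counts within each sample, which needs no scaling factor. None of the 28 pairs had an exact two-sided permutation p below 0.05, and the lowest p adjusted over the 28 exact tests was 0.64. The lowest exact permutation p was that of Ppbp against Cxcr2, 0.0571, with a difference in the log2 ratio of -0.78 between LPS + Tan and LPS. For Cxcl1 against its receptor Cxcr2 the difference was -0.53 (exact permutation p = 0.0857, adjusted over the 28 pairs 0.64), and -0.32 without LPS replicate 2. For Cxcl1 against Cxcl2 the difference was 0.11 (exact permutation p = 0.629). For the platelet pair Ppbp and Pf4 the difference was -0.48 (exact permutation p = 0.2), and -0.24 without LPS replicate 2.

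Members were then set beside the markers of a cell type known to make or carry them. The 18 neutrophil markers had a median log2 fold change of 0.0018, with 9 lower and 9 higher and 0 at an unadjusted p below 0.05 (lowest edgeR quasi-likelihood adjusted p = 0.924). Their summed CPM ranged from 9229 to 13108 in the LPS group and from 9488 to 10296 in the LPS + Tan group. Cxcr2 counts were 1.72% ± 0.218 (SD, n = 4) of the summed neutrophil marker counts in the LPS group and 2.03% ± 0.229 (SD, n = 4) in the LPS + Tan group (exact permutation p = 0.143, adjusted over 8 such ratios 0.229). Lcn2 made up 45.3% of that sum, and the log2 difference of 0.24 was 0.10 without Lcn2 and 0.12 against the mean log2 CPM of the markers, alternatives chosen after seeing the data. Among the most abundant neutrophil markers, Lcn2, which is made by epithelium as well, had a log2 fold change of -0.33, and S100a9 one of 0.019.

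The 16 platelet markers had a summed CPM of 589.3 to 722.4 in the LPS group and of 618.3 to 879.4 in the LPS + Tan group, and their log2 fold changes had a median of -0.11. Of these, 1 was lower at an unadjusted p below 0.05 and 0 were higher, beside 2.25% and 2.87% of all tested genes. The lower one was the integrin gene Itgb3, with a log2 fold change of -0.48. Its mean CPM was 179.7 in the LPS group and 129.2 in the LPS + Tan group. The integrin gene Itga2b had 15.3 and 13.8, with a log2 fold change of -0.15. Which cells gave the Itgb3 reads was not tested. On the FPKM scale, the platelet collagen receptor gene Gp6 and the von Willebrand receptor gene Gp1ba had mean levels of 0.066 and 0.097, beside 7.29 for Ppbp and 11.6 for Pf4. Of the summed CPM, 83.8% came from Thbs1, Itgb3 and F13a1, and Thbs1 and F13a1, which other cells of the lung make as well, had log2 fold changes of 0.19 and 0.56. The platelet glycoprotein genes Gp5, Gp9, Gp6, Gp1bb and Gp1ba had log2 fold changes of -0.69, -0.35, -0.31, -0.24 and 0.15, at about 1 CPM or less. Treml1 had the largest change of the list, a log2 fold change of 0.74, at mean CPM values of 0.508 (LPS) and 0.851 (LPS + Tan). Clec1b had a log2 fold change of 0.076. Of the 16 markers, 10 had a negative and 6 a positive log2 fold change. The platelet marker count is thus mostly a count of Thbs1, Itgb3 and F13a1. Per this count, Ppbp was 1.44% ± 0.357 (SD, n = 4) in the LPS group and 0.857% ± 0.234 (SD, n = 4) in the LPS + Tan group (exact permutation p = 0.0857, adjusted over 8 ratios 0.229). The log2 difference was -0.76, beside -0.58 (exact permutation p = 0.0286, not adjusted) against the mean log2 CPM of the markers, which weights each gene alike and was chosen as an alternative after seeing the data. Pf4 was 1.08% ± 0.295 and 0.919% ± 0.382 (SD, n = 4 each, exact permutation p = 0.486). The summed platelet marker CPM was highest in LPS + Tan replicate 1, where Ppbp had 5.39 CPM, and lowest in LPS replicate 4, where Ppbp had 10.6 CPM. The relation to the mean log2 CPM of these markers, which weights each marker alike, is given with the other correlations, and the part of platelet number in the lower Ppbp was not tested.

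For the ligands of tissue cells, Cxcl1 was 1.35% ± 0.360 (SD, n = 4) of the summed endothelial marker counts in the LPS group and 0.884% ± 0.135 (SD, n = 4) in the LPS + Tan group (exact permutation p = 0.0571, adjusted over 8 ratios 0.229). Cxcl1 and these markers had a negative correlation across the 8 samples, given with the other relations. The 10 endothelial markers stood at a median log2 fold change of 0.25. Of the 10, 2 were higher at an unadjusted p below 0.05, beside 2.87% of all tested genes. These were the VEGF receptor gene Kdr and the angiopoietin receptor gene Tek, at log2 fold changes of 0.37 and 0.51. Cxcl2 was 2.65% ± 0.782 (SD, n = 4) of the macrophage marker counts in the LPS group and 1.73% ± 0.397 (SD, n = 4) in the LPS + Tan group (exact permutation p = 0.0857). The gene Chil3 alone made up 60.8% of the summed macrophage marker CPM, with 1378 ± 489.2 CPM in the LPS group (SD, n = 4). The log2 difference of Cxcl2 per macrophage marker was -0.60 with Chil3, and -0.65 without it (exact permutation p = 0.0286, not adjusted) and -0.61 against the mean log2 CPM of the markers (exact permutation p = 0.0857), both chosen after seeing the data. The 16 macrophage markers stood at a median log2 fold change of 0.10. Of the 16, 1 was higher at an unadjusted p below 0.05, beside 2.87% of all tested genes. This was the complement gene C1qa, at 0.28. Cxcl3 per macrophage marker had log2 ratios that differed by -0.16 between the groups (exact permutation p = 0.743). Against the 15 alveolar type 2 and club cell markers, of whose summed CPM Scgb1a1 made up 54.2% and whose median log2 fold change was -0.051 with 0 at an unadjusted p below 0.05, Cxcl15 was 2.20% in both groups (± 0.354 and ± 0.456, SD, n = 4 each, exact permutation p = 0.886). Cxcl5 was 0.0396% ± 0.0086 and 0.0284% ± 0.012 (SD, n = 4 each, exact permutation p = 0.143). The 7 erythroid markers, which trace blood in the tissue, had a median log2 fold change of -0.47, all 7 negative and 0 at an unadjusted p below 0.05 with edgeR. With DESeq2, 2.08% of all genes were lower at an unadjusted p below 0.05, and so were 2 of the 7, the beta globin genes Hbb-bs and Hbb-bt. Their log2 fold changes with DESeq2 were -0.55 and -0.56, and since these genes are near-identical copies, their counts may share reads. The summed CPM of the erythroid markers was 1429 to 3457 in the LPS group and 1328 to 2180 in the LPS + Tan group. The 7 fibroblast markers had a median of -0.15, with 0 at an unadjusted p below 0.05. The part of these cell types in the lower chemokine levels was not tested.

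How the members varied together was taken from the log2 CPM of the 8 samples, with the mean log2 CPM of each marker list. Among 68 relations, 28 between members and 40 with cell type markers, 10 had an exact permutation p below 0.05 for Pearson's r, 0 after adjustment, and the lowest adjusted permutation p was 0.323. Cxcl1 and Cxcl2 had r = 0.748 (exact permutation p = 0.0332, adjusted 0.323) and rho = 0.714 (exact permutation p = 0.0576, adjusted 0.429), and r was 0.770 without the 2 samples farthest from the median of Cxcl1 and 0.512 for deviations from the group means. Ppbp and Pf4, the platelet pair, had r = 0.353 (exact permutation p = 0.375, adjusted 0.750) and rho = 0.238 (exact permutation p = 0.582, adjusted 0.943), with r = 0.559 without the 2 samples farthest in Ppbp and 0.211 within groups. This r was 0.744 without LPS replicate 2 and 0.030 without LPS + Tan replicate 3, so that 1 sample decided its size. Cxcr2 and the mean of the neutrophil markers had r = 0.657 (exact permutation p = 0.0793, adjusted 0.385) and rho = 0.762 (exact permutation p = 0.0368, adjusted 0.390), with r = 0.334 without the 2 samples farthest in Cxcr2, 0.409 without LPS replicate 2 and 0.711 within groups. Cxcl15 and the alveolar type 2 and club markers had r = 0.764 (exact permutation p = 0.0333, adjusted 0.323) and rho = 0.738 (exact permutation p = 0.0458, adjusted 0.390), with r = 0.419 without the 2 samples farthest in Cxcl15 and 0.759 within groups. Cxcl15 and the macrophage markers had r = 0.789 (exact permutation p = 0.0289, adjusted 0.323) and rho = 0.762 (exact permutation p = 0.0368, adjusted 0.390), with r = 0.738 without the 2 samples farthest in Cxcl15 and 0.857 within groups. The size of r for Cxcr2 with neutrophil markers and for Cxcl15 with epithelial markers thus rested in part on the samples left out.

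Of the 10 relations, Cxcr2 with the endothelial markers had the lowest p, with r = 0.830 (exact permutation p = 0.0052, adjusted 0.323) and rho = 0.762 (exact permutation p = 0.0368, adjusted 0.390), and r was 0.578 without the 2 samples farthest in Cxcr2 and 0.847 within groups. The endothelial relations of Cxcl1 and Cxcl2 were negative. Cxcl1 with the endothelial markers had r = -0.721 (exact permutation p = 0.0448, adjusted 0.336) and rho = -0.690 (exact permutation p = 0.0694, adjusted 0.429), with r = -0.526 without the 2 samples farthest in Cxcl1 and -0.551 within groups. Cxcl2 with them had r = -0.780 (exact permutation p = 0.0194, adjusted 0.323) and rho = -0.833 (exact permutation p = 0.0154, adjusted 0.390), with r = -0.728 without the 2 samples farthest in Cxcl2 and -0.663 within groups. Ppbp had r = 0.774 with Cxcl1 (exact permutation p = 0.0243, adjusted 0.323) and rho = 0.786 (exact permutation p = 0.0279, adjusted 0.390), with r = 0.527 without the 2 samples farthest in Cxcl1 and 0.411 within groups. With Cxcl2, Ppbp had r = 0.731 (exact permutation p = 0.0417, adjusted 0.336) and rho = 0.548 (exact permutation p = 0.171, adjusted 0.554), but r was -0.052 without the 2 samples farthest in Cxcl2 and so rested on them, beside 0.479 within groups. Cxcl2 with the platelet markers had r = 0.794 (exact permutation p = 0.0150, adjusted 0.323) and rho = 0.619 (exact permutation p = 0.115, adjusted 0.554), but r fell to 0.168 without the 2 samples farthest in Cxcl2 and so rested on them, beside 0.807 within groups. Ppbp with the platelet markers had r = 0.712 (exact permutation p = 0.0495, adjusted 0.336) and rho = 0.690 (exact permutation p = 0.0694, adjusted 0.429), with r = 0.488 without the 2 samples farthest in Ppbp and 0.773 within groups. Neither platelet relation kept its sign when the log2 of the summed CPM of the markers was taken in place of their mean log2 CPM, an alternative chosen after seeing the data, with r = -0.33 for Ppbp (exact permutation p = 0.445) and r = -0.17 for Cxcl2 (exact permutation p = 0.670).

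**Figure D4:**
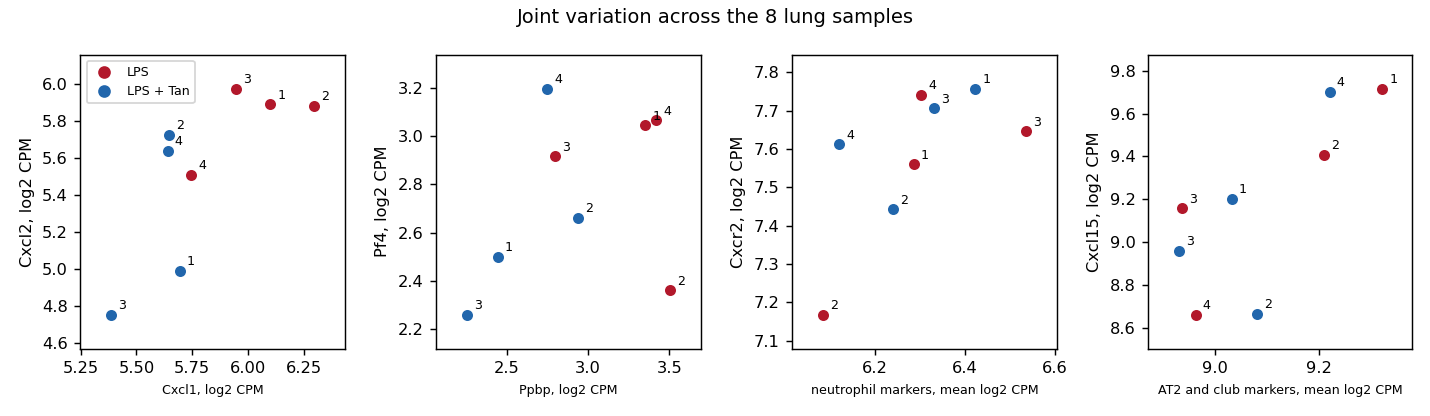
log2 CPM of Cxcl2 against Cxcl1, Pf4 against Ppbp, Cxcr2 against the mean of 18 neutrophil markers and Cxcl15 against the mean of 15 alveolar type 2 (AT2) and club markers, 1 point per sample with its replicate number, LPS in red and LPS + Tan in blue. Pearson's r is 0.748, 0.353, 0.657 and 0.764 over the 8 samples, and in the Cxcr2 panel LPS replicate 2 is the lowest on both axes.

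As a description, with no test, the tested genes whose log2 CPM followed each member most closely over the 8 samples were listed. For Cxcl1 these were Snrnp35 (r = 0.975), the NF-κB subunit gene Relb (r = 0.953) and Pecr (r = 0.951). For Cxcl2 they were Ano10 (r = 0.988), Sptlc2 (r = 0.983), which encodes a subunit of serine palmitoyltransferase, and Cflar (r = 0.966), which encodes the caspase-8 regulator c-FLIP. For Cxcl5 they were the MHC class Ib genes H2-T23 (r = 0.970) and H2-T22 (r = 0.943) and Cep126 (r = 0.935), and for Cxcl3 Slc26a4 (r = 0.970), Cdc25b (r = 0.944) and Naip1 (r = 0.927). Cnih1, Snrpa1 and Prdx1 were nearest to Cxcl15 (r = 0.964, 0.964 and 0.959), Prrg4, Cdkl3 and 4931406C07Rik to Ppbp (r = 0.971, 0.963 and 0.945), and Prkar1a, Elob and Max to Pf4 (r = 0.969, 0.967 and 0.959). Nlrp12, an NLR gene of myeloid cells, Shcbp1 and Atg4d were nearest to Cxcr2 (r = 0.961, 0.937 and 0.934). No member was among the 3 genes nearest to another member. The ranking was over 15706 genes and only 8 samples.

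Beyond the 8 genes, 7 other CXC chemokines were tested, with a median log2 fold change of -0.36. Beside 2.25% and 2.87% of all tested genes, 1 of the 7 was lower at an unadjusted p below 0.05 and 0 were higher. That gene was Cxcl14, a constitutive epithelial and stromal chemokine, with a log2 fold change of -1.12 and CPM values of 178.2 ± 142.2 in the LPS group and 82.0 ± 20.1 in the LPS + Tan group (SD, n = 4 each, edgeR quasi-likelihood adjusted p = 0.924). With DESeq2, 0 of the 7 had an unadjusted p below 0.05, and that of Cxcl14 was 0.0625 in the model across all genes. The interferon-induced CXCR3 ligands Cxcl9 and Cxcl10 had mean FPKM values of 802.6 and 245.0, the first above that of any member, and log2 fold changes of -0.56 and -0.75. Cxcl12, the CXCR4 ligand, Cxcl13, the CXCR5 ligand, Cxcl16, the CXCR6 ligand, and Cxcl17, a mucosal chemokine, had log2 fold changes of 0.20, -0.0042, 0.077 and -0.36. Of 6 other CXC receptors and scavengers tested, 0 had an unadjusted p below 0.05, with a median of -0.0022. Their log2 fold changes were 0.57 for Cxcr3, 0.22 for Cxcr4, -0.052 for Cxcr5, 0.048 for Cxcr6, -0.23 for Ackr2 and -0.51 for the CXCL12 scavenger Ackr3.

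Genes that act after CXCR2 or beside it in neutrophil entry were counted in the same way. Of 25 genes of CXCR2 signalling, from G protein subunits to arrestins and receptor kinases, 0 had an unadjusted p below 0.05, and the median log2 fold change was 0.11. With DESeq2, 1 of the 25, Rgs1, was lower at an unadjusted p below 0.05, beside 2.08% of all genes tested with it. The lowest edgeR quasi-likelihood adjusted p was 0.924, and the 3 genes of lowest unadjusted p were the Rac exchange factor gene Prex1 (0.38) and the G protein regulators Rgs1 (-0.55) and Rgs2 (-0.30), given as log2 fold changes. Gnai2 and Gnb1, the most abundant of the list in FPKM, had log2 fold changes of 0.014 and -0.016. Of 17 other neutrophil attractants, growth factors and their receptors, 0 had an unadjusted p below 0.05, with a median of 0.097. Csf3, which encodes G-CSF, the growth factor of neutrophils, had a log2 fold change of -0.94 (SE 0.45), Csf2 one of -0.25 and the leukotriene B4 synthesis gene Lta4h one of 0.15. The alarmin genes S100a8 and S100a9 had log2 fold changes of 0.0083 and 0.019. Of 11 adhesion genes used in neutrophil entry, 0 had an unadjusted p below 0.05, with a median of 0.081, and the selectin gene Selp had a log2 fold change of -0.45 while Icam1 had 0.022 and Pecam1 0.19.

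Of 20 genes that induce CXC chemokines or govern the decay of their mRNAs, 4 were lower at an unadjusted p below 0.05 and 0 were higher. The shares over all tested genes were 2.25% and 2.87%. The list, chosen with earlier results of these data known, had a median log2 fold change of -0.14. Il1a, which encodes an alarm cytokine that induces these chemokines, had CPM values of 17.0 ± 2.87 in the LPS group and 12.1 ± 0.756 in the LPS + Tan group (SD, n = 4 each), a log2 fold change of -0.49 (SE 0.13, edgeR quasi-likelihood adjusted p = 0.850). Tnfaip3, which encodes the NF-κB inhibitor A20, and Zfp36, which encodes tristetraprolin and so the decay factor of these mRNAs, had log2 fold changes of -0.36 and -0.31. The groups did not overlap for Il1a and Zfp36, both lower in LPS + Tan, as was so for 1.15% of all tested genes. The fourth gene, Il17a, was named after its values were seen, and had mean CPM values of only 0.644 and 0.211, with a log2 fold change of -1.61. The NF-κB inhibitor gene Nfkbia and the TNF receptor gene Tnfrsf1a, the most abundant of the list in FPKM, had log2 fold changes of -0.16 and -0.14, and Tnf and Il1b had 0.093 and 0.13 and were likewise named after their values were seen.

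**Figure D5:**
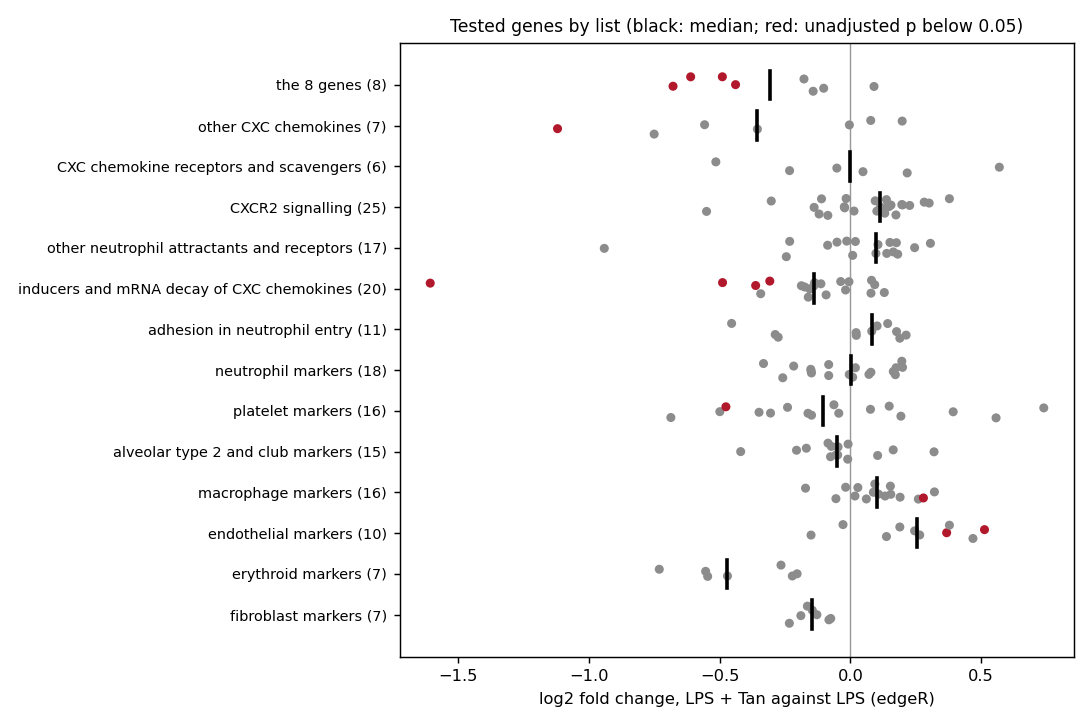
log2 fold change of LPS + Tan against LPS (horizontal axis) for every tested gene of the 8 members and of 13 lists, with the number of tested genes in brackets, the list median in black and genes with an unadjusted p below 0.05 in red. The 8 genes have 4 red points, all negative, and a median of -0.31, while the medians of CXCR2 signalling and neutrophil markers are 0.11 and 0.0018.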

How the data were processed

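RNA-seq of lung was compared between the LPS group (n = 4) and the LPS + Tan group (n = 4). The authors deposited 2 tables: raw read counts per gene, without normalization, and FPKM values, which are counts per gene length and per total of the sample. The submitters' processing notes name the builds GRCm38 and mm10, and no aligner, annotation or counting tool is named in the sources used here. The methods and the labels name different extraction and library kits. Every column of sample values had a sample, with 0 left over.

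Genes were kept by edgeR's filterByExpr, scaled by TMM and tested by edgeR 4.0.16 in R 4.3.3 (quasi-likelihood test, no covariate), with Benjamini-Hochberg adjustment over all 15706 genes. The standard error was the size of the log2 fold change divided by the square root of F. CPM values use TMM factors, and log2 CPM a prior count of 2. Ratios of counts within a sample used a pseudocount of 0.5 between members and none against marker sums. For single values, a two-sided exact permutation test was taken over all 70 arrangements of the samples, which cannot give a p under 0.0286. The spread between samples, rather than depth, set the precision of most members, since the lowest count of a member was 136. No 2 samples of a group were a repeated library. The comparison was also made with DESeq2 1.42.0, limma 3.58.1 (voom, log2(FPKM + 1), log2(FPKM + 0.1)), other scalings and filters, the likelihood ratio test, a replicate block and each sample left out.

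Of 180 entries in 13 gene lists written from general knowledge, 176 were in the tables. The 8 genes and the lists were chosen with earlier results of these data known. The text names all 8 genes, all other CXC chemokines and receptors tested, and, in the other lists, genes among the 3 of lowest unadjusted p and the 2 of highest mean FPKM. For each member it also names the 3 tested genes of highest Pearson r. Scgb1a1, Sftpc, Gp6, Gp1ba, Gp1bb, Gp5, Gp9, Clec1b, Itga2b, Thbs1, F13a1, Chil3, Tnf, Il1b and Il17a are named beside this rule where they fall outside it. Gene positions and promoters are from RefSeq (GRCm38.p6), in which 23807 gene names were matched. Scripts were tested on simulated counts.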

Additional observations from a re-analysis of the deposited data

Results flagged for a closer look

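In the LPS group, Cxcl5 in replicate 4 stood apart from the other samples, at 6.84 CPM where the next lowest sample had 12.1 CPM. Its distance to that sample was 0.862 of the range of the group, above Dixon's limit for 4 samples. The summed CPM of the platelet markers was also lowest in LPS replicate 4, at 589.3 where the next lowest sample had 702.7, a distance of 0.852 of the range. These were 2 of 30 groups of 4 samples examined, where chance gives about 1 in 20, or 1.5. Without LPS replicate 4, the log2 fold change of Cxcl5 was -0.78.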

How the results depend on the processing

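No member passed an adjusted p of 0.05 in any of the 19 alternatives, the lowest adjusted p being 0.173 for Ppbp with DESeq2, against up to 0.9999 in its other alternatives. Cxcl1 and Ppbp had an unadjusted p below 0.05 in all 19. With each sample left out in turn, the log2 fold change ran from -0.52 to -0.35 for Cxcl1, from -0.65 to -0.34 for Cxcl2, from -0.80 to -0.46 for Cxcl5, from -0.81 to -0.58 for Ppbp and from -0.39 to -0.058 for Pf4. It ran from -0.32 to 0.15 for Cxcl3 (positive without LPS replicate 4), from -0.33 to 0.076 for Cxcl15 (0.076 without LPS replicate 1 and 0.036 without LPS + Tan replicate 2) and from -0.021 to 0.16 for Cxcr2 (negative without LPS replicate 2). The number of members lower at an unadjusted p below 0.05 ran from 2 to 4, and was 2, Cxcl1 and Ppbp, without LPS replicate 1, 2 or 3 or LPS + Tan replicate 1. Cxcl5 also lost it with totals only and on both FPKM scales. Among the log2 ratio differences, Cxcl1 to Cxcl2 ran from -0.022, without LPS + Tan replicate 1, to 0.24 and Cxcl3 per macrophage marker 0.14 without LPS replicate 4. Cxcl15 per epithelial marker was 0.020 on summed FPKM, ran from -0.12 to 0.15 with a sample left out, and was 0.067, 0.010 and 0.15 without LPS replicate 1, LPS replicate 3 and LPS + Tan replicate 2. With a sample left out, Pf4 per platelet marker ran from -0.53 to -0.12, Cxcl5 per epithelial marker from -0.79 to -0.35 (-0.35 without LPS + Tan replicate 2), and r from 0.58 to 0.82 for Cxcl1 and Cxcl2, 0.66 to 0.88 for Cxcl15 and 0.52 to 0.85 for Ppbp with platelet markers. With the summed CPM of the markers, chosen after seeing the data, r was -0.33 for Ppbp and -0.17 for Cxcl2 with platelet markers, 0.35 for Cxcr2 with neutrophil markers and 0.61 for Cxcl15 with macrophage markers. With the mean log2 CPM of the markers, or without the highest marker, also chosen after seeing the data, the difference per marker was -0.58 and -0.65 for Ppbp, -0.097 and -0.17 for Pf4 and -0.063 and -0.11 for Cxcl15. The median of the neutrophil markers was -0.0025 with DESeq2. The causes were not tested.

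The replicate numbers were not taken to pair the samples, since deviations from the group means of same-numbered samples correlated at -0.15 to 0.12, and 1 of 8 samples correlated best with its own number. With the replicate block, the log2 fold change was -0.43 for Cxcl1, -0.54 for Cxcl2, -0.62 for Cxcl5 and -0.68 for Ppbp, and 0 members passed the adjusted threshold.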
